A study of Homo sapiens with 18 samples.

Results

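SUDHL4 is an established human diffuse large B cell lymphoma line of germinal centre type. Its RNA was sequenced after 12 h with a compound at 10 µM that the study gives by a code name and calls an inhibitor of BCL6, and after 12 h with DMSO, the vehicle. The labels put 6 of the 18 libraries of the series in this line, 3 treated and 3 given DMSO, and these 6 are described here. The other 12 libraries are of the lymphoma lines SUDHL6 and Farage with the same treatments, again 3 libraries per group. Values are CPM, read counts scaled to one common total per library, and 11256 of the 23250 listed genes had at least 1 CPM in at least 3 of the 6 SUDHL4 libraries and were tested. The labels record no other agent or genetic change in any group, and they do not say whether replicates were grown separately. The p-values therefore reflect the spread between these libraries alone, which may be technical.

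BCL6 is a zinc finger transcriptional repressor that germinal centre B cells need while they divide and mutate their antibody genes. It recruits corepressors, among them BCOR and NCOR1, to promoters and enhancers of genes for cell cycle arrest, the DNA damage response, B cell activation and plasma cell differentiation. Polycomb repressive complex 2 (PRC2), with its methyltransferase EZH2, places a repressive histone mark that chromobox proteins such as CBX8 read in Polycomb repressive complex 1 (PRC1). The series asks how BCL6 and EZH2 act together, through a complex with BCOR and the chromobox protein CBX8.

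The SUDHL4 libraries held 16.87 to 25.49 M reads in listed genes, where 3 reads correspond to at most 0.139 CPM. The line's identity could be checked against markers: all 10 B cell markers were tested, with a summed level of 7292 to 7829 CPM in DMSO and 4860 to 5021 CPM in treated libraries. Sums for myeloid, NK, epithelial and erythroid markers stayed under 14 CPM in each library. The T cell markers summed to 92.8 to 111 CPM in DMSO and 35.01 to 41.66 CPM in treated libraries, nearly all from LCK, with CD2, CD8A and TRAT1 at 0. Stromal markers summed to 64.0 to 71.1 and 24.4 to 26.8 CPM, mostly from DCN, with COL3A1 and CDH5 at 0. The part of these marker changes in the results below was not tested. In such bulk libraries fewer cells of a type and less RNA per cell cannot be told apart.

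DMSO replicate 3 lay between its partners and the treated libraries. On the leading principal component of log2(CPM + 1), which held 96.4% of the variance, it was at -42, against -60.2 and -60.6 for the other DMSO libraries and 51.4 to 55.8 for the treated ones. For each of 718 genes that differed at least 4-fold between the treated libraries and DMSO replicates 1 and 2, its level was placed on a scale from 0%, the mean of those DMSO replicates, to 100%, the mean of the treated libraries. Its median place was 16.2%, with quartiles at 12.7 and 21.2%. It lay on the treated side of its partners in 713 of the 718 genes, and 693 (96.5%) lay between 5 and 35%. The 223 rising genes had a median of 13.4% and the 495 falling ones 18.9%. Among gene lists used here (members that differed at least 2-fold) the median place was 12.2% for heat shock genes, 13.0% for the NRF2 response, 11.0% for mitosis and 20.6% for B cell receptor signalling. Its depth, 23.7 M reads, was between those of its partners. What set this library apart was not tested, and results are given with and without it. Without it, 181 of the 181 genes named by rule kept their direction and call, and 31 of the 31 list medians kept their sign. The NRF2 list's median moved most, by 0.13.

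**Figure D1:**
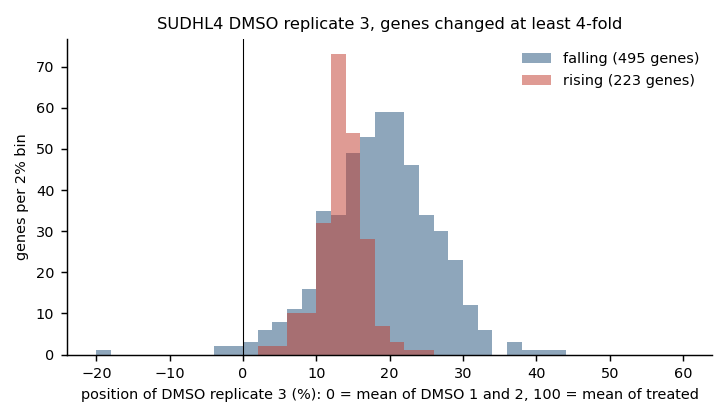
Place of SUDHL4 DMSO replicate 3 between its DMSO partners (0%) and the mean of the treated libraries (100%) for 718 genes that differed at least 4-fold, in bins of 2%, with the number of genes on the vertical axis. The 223 rising genes gather around a median of 13.4% and the 495 falling genes around 18.9%, and 5 genes lie below 0.

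Most of the measured transcriptome differed between treated and DMSO libraries. On log2(CPM + 1), where the added 1 makes the folds of weakly expressed genes smaller, limma called 9378 of 11256 genes (83.3%) at an adjusted p under 0.05, 3248 higher (28.9%) and 6130 lower (54.5%). At least 2-fold changes numbered 957 higher (8.5%) and 2557 lower (22.7%). The groups did not overlap for 9675 genes (86%), with treated libraries higher in 30.2% and lower in 55.8% of all genes. Without DMSO replicate 3 the calls were 3237 higher (28.8%) and 6123 lower (54.4%), 83.2% together, of which 3176 and 6038 were also called with it. Without it 1070 (9.51%) and 2727 (24.2%) were at least 2-fold. The median log2 fold change over all genes was -0.31 (-0.33 without that library). With median-of-ratios scaling, which sets this median to 0, 4675 genes were higher (41.5%) and 4656 lower (41.4%), 82.9% together, and 14.5% and 14.4% were so by at least 2-fold. With edgeR on recovered reads 40.1% were higher and 42.8% lower, also 82.9% together, and 15.9% and 18.6% by at least 2-fold. Of the calls, 34.6% were thus higher at the deposited scale, 50.1% with median-of-ratios scaling and 48.4% with edgeR. A gene at 0 on the deposited scale therefore lies 0.31 above the typical gene. Leaving out DMSO replicate 3 moved the fold of 17 called genes by over 1.5 times, all of them higher in treated libraries. A number in brackets after a gene below is its log2 fold change on this scale, treated minus DMSO. Genes named only to complete a small count were picked after their values were seen.

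BCL6 mRNA itself fell. It stood at 504, 526 and 461 CPM in DMSO replicates 1 to 3 and at 234, 227 and 238 CPM in the treated libraries. All treated values lay below 240 CPM and all DMSO values above 460 CPM, with a log2 fold change of -1.09 (SE 0.0672, adjusted p = 3.4e-08; -1.14 without DMSO replicate 3). BCOR, the corepressor that also forms a PRC1 variant, went from 54.2, 63.0 and 52.4 to 34.3, 31.5 and 44.4 CPM. It fell by 0.62 on the log2 scale (SE 0.118, adjusted p = 0.000394), or by 0.28 with median-of-ratios scaling. The other members of the corepressor list include NCOR1 and its partners, the SIN3A and CTBP1 corepressors, MTA3 and histone deacetylases. Of its 15 members, all tested, 5 rose and 7 fell (all genes: 28.9% and 54.5%), with a median of -0.12. That median was 0.22 with median-of-ratios scaling, under which 8 were higher and 5 lower.

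Histone deacetylases made up most of the corepressor genes with the smallest p. HDAC1 stood at 656, 672 and 606 CPM in DMSO and 297, 322 and 334 CPM in treated libraries (-1.02, SE 0.0698). HDAC2 (-0.85) and the class IIa deacetylase HDAC7 (-1.07) also fell, as did CTBP1 (-0.78). HDAC4, of the same class as HDAC7, rose from 11.5, 11.8 and 11.9 to 20.1, 17.8 and 19.6 CPM (0.66, SE 0.0863). The groups did not overlap for any of these 5 genes, as for 86% of all genes. Among genes picked after their values were seen, HDAC3, the enzyme of the NCOR1 complex (0.34), NCOR1 (0.26), TBL1XR1 (0.49) and SIN3A (0.39) rose.

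The PRC2 genes moved in both directions. EZH2 stood at 107, 103 and 107 CPM in DMSO and 128, 135 and 121 CPM in treated libraries. Each treated value lay above each DMSO value, and the increase was small on the deposited scale (0.27, SE 0.066, adjusted p = 0.00221; 0.28 without DMSO replicate 3). With median-of-ratios scaling the increase was 0.62. With all 18 libraries in the fit, which share 1 spread per gene, EZH2 was not called (adjusted p = 0.136). Of 11 PRC2 members, all tested, 6 rose and 4 fell (28.9% and 54.5% of all genes), with a median of 0.22. That median was 0.57 with median-of-ratios scaling, under which 7 were higher and 3 lower.

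The largest changes among PRC2 genes were in PHF19, RBBP7 and PHF1. RBBP7, a histone-binding WD40 protein, stood at 164, 164 and 144 CPM in DMSO and fell to 54.5, 56.2 and 57.6 CPM (-1.47, SE 0.0725). Its paralogue RBBP4 fell as well (-0.96). PHF19 and PHF1 are alternative Polycomb-like subunits that help PRC2 bind chromatin. PHF19 fell from 45.0, 48.4 and 39.4 to 9.33, 11.4 and 9.03 CPM (-2.05, SE 0.107), while PHF1 rose from 20.7, 21.9 and 28 to 63.4, 66.3 and 67.2 CPM (1.45, SE 0.103). For both genes the groups were far apart, with DMSO replicate 3 nearest to the treated libraries. JARID2, a subunit of another PRC2 variant, rose (0.69, SE 0.111). Of the remaining members, SUZ12 (0.22), EZH1 (0.33) and MTF2 (0.35) rose and the core subunit EED (-0.46) fell.

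Several chromobox genes of PRC1 fell. CBX8 stood at 15.2, 14.1 and 12.5 CPM in DMSO and 6.31, 5.48 and 5.83 CPM in treated libraries. No treated value came near the lowest DMSO value (-1.12, SE 0.102, adjusted p = 6.94e-07; -1.19 without DMSO replicate 3). CBX2 fell from 20.3, 20.9 and 17.0 to 2.29, 2.78 and 3.75 CPM (-2.38, SE 0.137) and CBX7 from 12.5, 13.6 and 9.21 to 1.48, 1.14 and 2.31 CPM (-2.28, SE 0.171). RYBP, a subunit of variant PRC1 complexes that lack a chromobox protein, stood at 26.3, 28.8 and 38.8 CPM in DMSO and 134, 154 and 112 CPM in treated libraries (2.06, SE 0.14). DMSO replicate 3 was the highest of the DMSO libraries for RYBP and still below 40 CPM. PHC3, a polyhomeotic subunit, rose (1.24, SE 0.0996). Among the 22 tested PRC1 and BCOR complex genes, 10 were called higher and 10 lower (28.9% and 54.5% of all genes), with a median of -0.08, or 0.25 with median-of-ratios scaling. Among members of the BCOR complex picked after their values were seen, KDM2B fell (-0.91), SKP1 (0.63) and USP7 (0.32) rose, and PCGF1 was not called (0.00, adjusted p = 0.98).

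**Figure D2:**
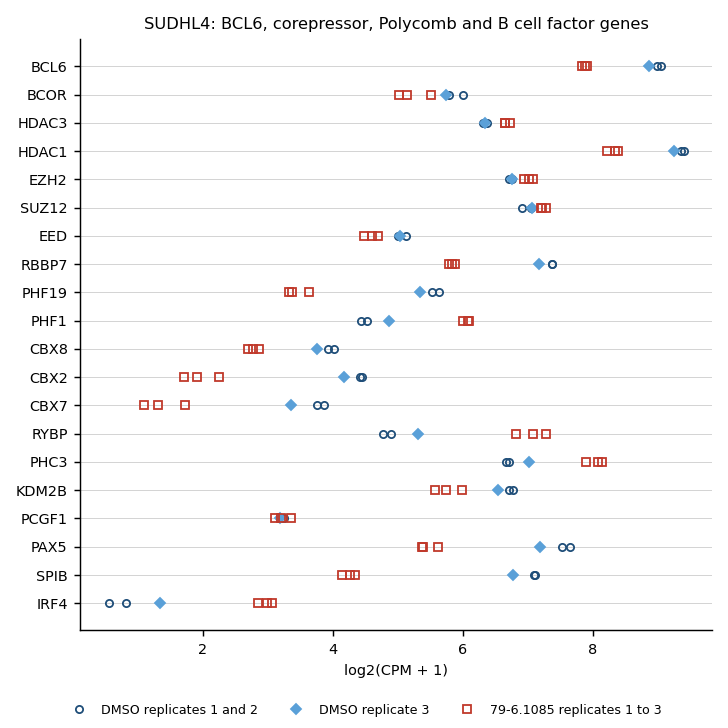
Level of BCL6, corepressor, Polycomb and B cell factor genes in each SUDHL4 library, as log2(CPM + 1), with DMSO replicates 1 and 2 as open circles, DMSO replicate 3 as a filled diamond and treated libraries as open squares. The genes shown were picked after their values were seen. BCL6, RBBP7, PHF19, CBX8, CBX2 and CBX7 lie lower in the treated libraries, while PHF1, RYBP and IRF4 lie higher.

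Transcription factors that work with or against BCL6 split in the same libraries. PAX5, which keeps B cell identity, stood at 183, 199 and 145 CPM in DMSO and fell to 40.9, 40.4 and 47.9 CPM (-1.997, SE 0.111). SPIB, an ETS factor of B cells, fell from 136, 135 and 108 to 16.6, 19.2 and 18.3 CPM (-2.74, SE 0.0991), and POU2F2, the octamer factor OCT2, from 148, 152 and 121 to 18.8, 18.5 and 23.4 CPM (-2.73, SE 0.108). DMSO replicate 3 was the lowest DMSO library for all 3 genes and remained far above the treated ones. FOXO1, a factor of the dark zone of the germinal centre, rose from 135, 135 and 150.2 to 268, 253 and 282 CPM (0.93, SE 0.0711). IRF4, which drives exit from the germinal centre, rose from 0.766, 0.475 and 1.54 to 6.97, 7.33 and 6.20 CPM (2.06, SE 0.171; 2.28 without DMSO replicate 3). The ID3 (-1.43), POU2AF1 (-0.90), TCF3 (-0.62) and EBF1 (-0.50) genes fell, and XBP1 (1.28), BACH2 (0.55) and IRF8 (0.55) rose, all picked after their values were seen. Of 14 tested members of this circuit, 5 rose and 8 fell (28.9% and 54.5% of all genes), with a median of -0.56. PRDM1, the plasma cell repressor that BCL6 silences, was not tested: it was at 0, 0 and 0.101 CPM in DMSO and 0.221, 0.142 and 0.0926 CPM in treated libraries, which is at most a few reads each.

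Genes described as direct BCL6 targets also moved both ways. Of 18 tested, 10 rose and 8 fell (28.9% and 54.5% of all genes), with a median of 0.40. At least 2-fold changes numbered 6 and 3 (8.5% and 22.7% of all genes). CD69, an early activation antigen, rose from 0.547, 0.507 and 1.47 to 7.12, 8.12 and 7.54 CPM (2.26, SE 0.17). Treated libraries were all above 7 CPM and DMSO libraries all below 1.5 CPM. EP300, a histone acetyltransferase, went from 178, 199 and 214 to 395, 386 and 388 CPM (0.99, SE 0.0734). CHEK1, a checkpoint kinase that acts under replication stress, fell from 47.9, 45.5 and 41.4 to 19.2, 18.2 and 18.5 CPM (-1.22, SE 0.081), and BCL2L1, which codes for the survival protein BCL-XL, from 43.5, 50.7 and 38.9 to 14.7, 13.3 and 15.8 CPM (-1.54, SE 0.105). Members picked after their values were seen were CDKN1A, the arrest gene p21 (1.77), GPR183, a receptor that guides B cells out of the follicle centre (2.03), and ID2 (1.85), which rose, and the cyclin CCND2 (-1.12) and ATR (-0.61), which fell.

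Most of the germinal centre genes called were lower. Of 19 tested, 1 rose (MYBL1, 0.25) and 13 fell (28.9% and 54.5% of all genes), with a median of -0.86. ELL3, an elongation factor, fell from 253, 266 and 220.1 to 34.6, 34.6 and 38.1 CPM (-2.75, SE 0.0821) and LMO2 from 112, 116 and 93.5 to 20.3, 21.8 and 19.5 CPM (-2.32, SE 0.0906). Of 11 tested plasma cell genes 4 rose (SLAMF7, IRF4, XBP1 and ELL2) and 7 fell (28.9% and 54.5% of all genes), with a median of -0.66, shares near those of all genes. SLAMF7, a surface receptor of plasma cells, rose from 0.584, 0.697 and 4.19 to 41.4, 57.6 and 30.1 CPM (4.15, SE 0.373). The secretory pathway genes MZB1 (-1.83, SE 0.0809) and FKBP11 (-1.08, SE 0.0922) and the ectoenzyme CD38 (-1.48, SE 0.0734) fell. With median-of-ratios scaling 6 germinal centre genes were higher and 13 lower.

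Genes of B cell receptor signalling were mostly lower. Of 24 tested, 2 rose and 19 fell (28.9% and 54.5% of all genes), 12 of them at least 2-fold (22.7% of all genes), with a median of -1.03, and 5 were higher and 18 lower with median-of-ratios scaling. PTPN6, the phosphatase SHP-1 that restrains the receptor, had the most negative change of all genes named here: 356, 362 and 291 CPM in DMSO and 22.3, 24.7 and 22.8 CPM in treated libraries (-3.79, SE 0.0888, adjusted p = 3.15e-10; -3.89 without DMSO replicate 3). Signal transducers followed the same direction. The kinase gene BTK fell from 284, 286 and 254 to 88.7, 94.6 and 91.9 CPM (-1.57, SE 0.0686), and PLCG2, the phospholipase that BTK activates, from 666, 709 and 597 to 207, 220.4 and 212 CPM (-1.62, SE 0.0731). The Src family kinase BLK (-1.56) and the inhibitory coreceptor CD72 (-1.76) fell too. BCL10 (0.75) and MALT1 (0.31), which link the receptor to NF-kB, were the 2 that rose. The receptor chains CD79A (-0.74) and CD79B (-1.42) and the kinases SYK (-1.11) and LYN (-0.76), picked after their values were seen, fell.

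Immune signalling and antigen presentation lists had shares of calls near those of all genes. Of 17 tested NF-kB and CD40 genes, 6 rose and 9 fell (28.9% and 54.5% of all genes), with a median of -0.30 (0.04 with median-of-ratios scaling). IKBKE, an IkB kinase relative, fell from 50.5, 51.1 and 41.6 to 3.87, 6.05 and 4.44 CPM (-3.09, SE 0.135), and BIRC3 (-1.57), TRAF1 (-1.33) and CD40 (-1.03) fell. NFKBIB, an inhibitor of NF-kB, rose from 16.7, 17.3 and 20.9 to 53.3, 58.1 and 49.2 CPM (1.50, SE 0.0987). Of 23 antigen presentation genes 7 rose and 11 fell (28.9% and 54.5% of all genes), with a median of -0.15 (0.20 with median-of-ratios scaling, under which 12 were higher and 10 lower). CIITA, the master activator of MHC class II genes, fell from 101, 109 and 82.8 to 11.4, 12.8 and 13.1 CPM (-2.87, SE 0.104). HLA-DRA, a class II gene picked after its values were seen, was not called: 2546, 2473 and 2517 CPM in DMSO and 2635, 2813 and 2385 CPM in treated libraries. The peptide transporter TAP2 (-1.35) and the immunoproteasome genes PSMB8 (-1.75) and PSMB9 (-2.23) fell. Of 11 interferon response genes 5 rose and 5 fell (28.9% and 54.5% of all genes), with a median of 0.04. With all 18 libraries in the fit 3 were called higher. Those that rose were IRF7 (1.15), IRF1 (0.82), IRF9 (0.65), IFIT2 (0.52) and OAS1 (0.41), and those that fell include OAS2 (-0.81), IFI35 (-1.02), ISG15 (-1.05) and ISG20 (-0.85).

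The 15 genes that rose most by log2 fold change include the chaperones and cochaperones HSPA1B, HSPA6, DNAJB4 and BAG3, the stress factors ATF3, DDIT3 and PPP1R15A, the cystine transporter SLC7A11 and the autophagy receptor SQSTM1. CRIM1, a transmembrane protein that binds BMPs, headed them: it was at 0, 0.0317 and 18.8 CPM in DMSO and 117, 109.9 and 123 CPM in treated libraries. DMSO replicates 1 and 2 were under 3 reads (0.095 to 0.109 CPM), so the gene's level in the DMSO group came almost wholly from replicate 3. Its log2 fold change was 5.43 with that library, 6.85 without it, a value that then depends on the added 1, 4.70 without replicate 1 and 4.72 without replicate 2. DESeq2 on recovered reads did not call it (adjusted p = 0.0776). SLC7A11 stood at 10.9, 10.7 and 86.5 and 582, 542 and 511 CPM, or 4.57 (SE 0.574; 5.53 without DMSO replicate 3). For SQSTM1 the values were 75.9, 80.0 and 277 CPM in DMSO and 1633, 1816 and 1457 CPM in treated libraries (3.76; 4.37 without that library). RGS1, a regulator of G protein signalling, went from 4.05, 3.86 and 18.7 to 149, 170.1 and 113 CPM (4.19; 4.85). In each of these genes replicate 3 was the highest DMSO library. Only genes whose groups did not overlap, 86% of all genes, could enter the 15. The rest of the 15 were OSGIN1 (3.97; 4.65 without DMSO replicate 3), FNIP2 (3.73; 4.31), PLAC2 (3.67; 4.27) and SLAMF7.

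**Figure D3:**
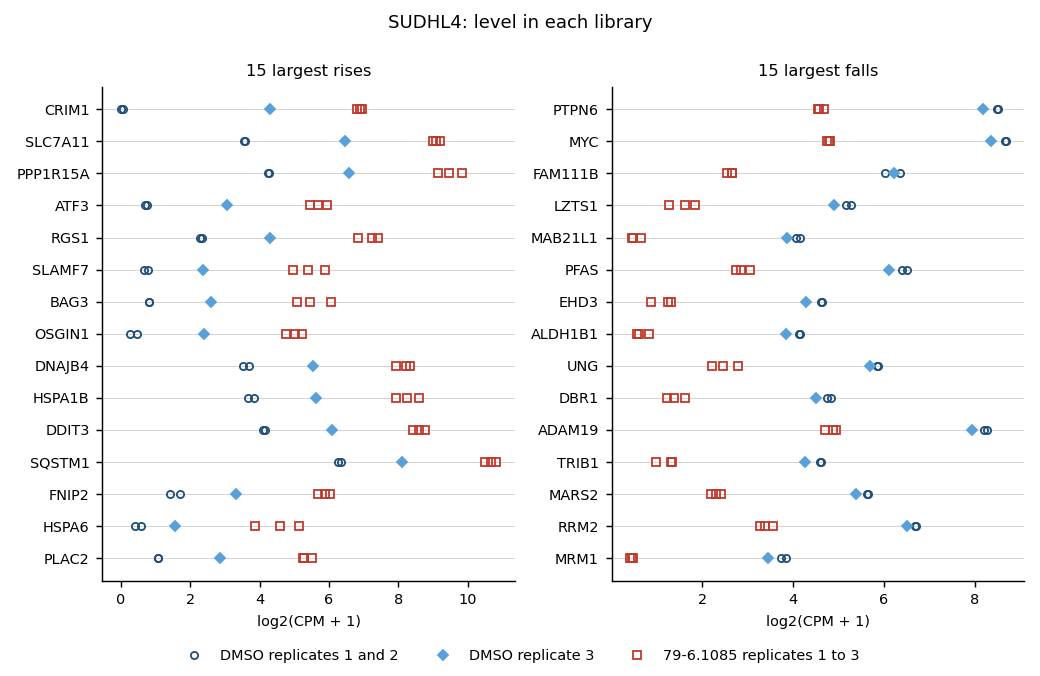
Level in each SUDHL4 library, as log2(CPM + 1), of the 15 genes that rose most (left) and the 15 that fell most (right), with DMSO replicates 1 and 2 as open circles, DMSO replicate 3 as a filled diamond and treated libraries as open squares. DMSO replicate 3 stands apart from its partners towards the treated libraries in the rising genes. No treated library overlaps a DMSO library in any of the 30 genes, because only genes without overlap were eligible.

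Heat shock genes encode chaperones that heat shock factor 1 switches on when proteins misfold. Of 19 tested, 12 rose and 3 fell (28.9% and 54.5% of all genes), 9 and 0 of them at least 2-fold (8.5% and 22.7% of all genes), with a median of 0.96 (1.01 without DMSO replicate 3). The 3 that fell were HSPE1 (-0.35) and the factors HSF1 (-0.45) and HSF2 (-0.19), and with median-of-ratios scaling 15 were higher and 0 lower. HSPA1B, an inducible HSP70 gene, stood at 13.3, 11.6 and 48.1 CPM in DMSO and 305, 387 and 244 CPM in treated libraries (3.89; 4.52 without DMSO replicate 3). It shares reads with the near-identical HSPA1A, which was under 1 CPM in each library. HSPA6, a strictly inducible HSP70 gene that is not in the list, went from 0.328, 0.475 and 1.94 to 22.9, 34.1 and 13.6 CPM (3.68, SE 0.317; 4.04). Cochaperones of HSP70 rose with it: DNAJB1 from 76.3, 73.8 and 129.9 to 518, 616 and 458 CPM (2.54, SE 0.18), DNAJB4 from 11.8, 10.4 and 45.4 to 298, 324 and 242 CPM (3.92; 4.57 without DMSO replicate 3) and BAG3 from 0.730, 0.760 and 5.06 to 43.1, 66.0 and 32.8 CPM (4.13; 4.73). HSPH1, an HSP110 chaperone, had one of the 5 largest gains in CPM, from 495, 466 and 746 to 2356, 2587 and 2119 (2.08). STIP1 (1.45) and CHORDC1 (2.20), cochaperones of HSP90, and the small heat shock gene HSPB1 (2.24) rose. The constitutive HSPA8, picked after its values were seen, was not called, at 2215, 2205 and 2225 CPM in DMSO and 2233, 2504 and 1945 CPM in treated libraries.

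Promoters of these genes were read from RefSeq (GRCh38.p14), in windows from 250 bases before to 50 after each gene's start, and searched on both strands. The heat shock element is a run of inverted GAA units. Its 3-unit form (GAA, TTC and GAA, or TTC, GAA and TTC, set apart by 2 bases of any kind) was in 0.487% of all 27305 windows and in 3 of the 19 matched heat shock promoters (15.8%), and the 2-unit form GAANNTTC, which lies inside it, in 6.87% and in 6 of 19 (31.6%). The 3 were CHORDC1 and DNAJA1, which rose, and HSPA8, which was not called. The antioxidant element to which NRF2 binds, TGACNNNGC, was in 13.6% of all windows and in 5 of 16 matched promoters of the NRF2 list (31.2%). It was in 15.6% of windows of genes tested in SUDHL4 and in 2 of the 12 matched list members that rose (16.7%). Of the 5, GCLM and TXNRD1 rose, PGD was not called, and ME1 and PIR were not tested. An ATF4 element, TGATGNAAT, was in 1.02% of all windows and in 0 of 25 of the ATF4 list, and the BCL6 core motif TTCCTAGAA in 0.403% and in 0 of 17 of the BCL6 target list, which says only that these letters are not in these windows. The 120 bases before the start are shown for 2 genes of each of the first 2 kinds, to show where the element lies, with the matching letters in capitals. HSPA6 is not in the heat shock list and was taken from the 15 genes that rose most. Of their 11 matched promoters, 1 held the 3-unit form (9.09%).
HSPA6 (chr1:161524420-161524539, plus strand, element 74 to 62 bases before the start): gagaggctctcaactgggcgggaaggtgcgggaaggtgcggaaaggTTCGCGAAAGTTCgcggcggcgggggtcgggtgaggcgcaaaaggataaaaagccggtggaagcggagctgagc
CHORDC1 (chr11:90223050-90223169, minus strand, 3 overlapping matches 60 to 38 bases before the start): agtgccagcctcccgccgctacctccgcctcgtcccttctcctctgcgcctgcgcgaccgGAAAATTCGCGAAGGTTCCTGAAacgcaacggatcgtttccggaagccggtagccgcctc
GCLM (chr1:93909431-93909550, minus strand, 34 to 26 bases before the start): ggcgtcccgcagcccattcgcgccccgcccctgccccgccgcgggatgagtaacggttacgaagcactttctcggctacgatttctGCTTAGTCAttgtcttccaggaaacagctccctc
TXNRD1 (chr12:104215659-104215778, plus strand, 99 to 91 bases before the start): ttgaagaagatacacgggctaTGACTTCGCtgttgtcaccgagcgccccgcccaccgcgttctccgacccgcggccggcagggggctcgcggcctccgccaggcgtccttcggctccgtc
GCLM carries the element on the opposite strand, and a match is a description of these letters, not a bound site.

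NRF2 is the factor of the oxidative and electrophile response. Of 19 tested members of its list, 15 rose and 2 fell, 11 and 0 of them at least 2-fold (8.5% and 22.7% of all genes), with a median of 1.58 (1.71 without DMSO replicate 3), where 28.9% and 54.5% of all genes were called higher and lower. The 2 that fell were TXN (-0.43) and ABCC1 (-0.50), and with median-of-ratios scaling 17 were higher and 0 lower. TXNRD1, thioredoxin reductase, stood at 195, 196 and 297 CPM in DMSO and 939, 1011 and 842 CPM in treated libraries (2.04, SE 0.139). GCLM, a glutathione synthesis gene picked for the promoter shown above, rose from 21.1, 21.2 and 43.1 to 203, 236 and 173 CPM (2.87, SE 0.219), and GCLC, its catalytic partner, from 48.9, 46.5 and 65.4 to 171, 172 and 158 CPM (1.64, SE 0.11). Iron storage genes rose too, FTL from 669, 669 and 988 to 3020, 3473 and 2887 CPM (2.03, SE 0.134) and FTH1 from 60.6, 64.2 and 82.8 to 201, 225 and 196 CPM (1.58). SRXN1, which repairs peroxiredoxins, rose too (1.87). The gene of NRF2 itself, NFE2L2, picked after its values were seen, rose (1.41). In all of these the treated and DMSO libraries did not overlap, as for 86% of all genes. HMOX1, a well-known member, was not tested, at 0.469 to 0.547 CPM in DMSO and 0.605 to 0.922 CPM in treated libraries.

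ATF4 drives amino acid supply and the integrated stress response. Of 24 tested members, 21 rose and 2 fell (28.9% and 54.5% of all genes), 18 and 1 of them at least 2-fold (8.5% and 22.7% of all genes), with a median of 1.54 (1.65 without DMSO replicate 3). The 2 that fell were PSPH (-0.46) and CBS (-1.29), of which 1 was called lower with median-of-ratios scaling. ATF4 mRNA stood at 196, 199 and 213 CPM in DMSO and 417, 442 and 404 CPM in treated libraries (1.05, SE 0.0655). Factors of the same pathway rose: DDIT3 (CHOP) from 16.9, 16.2 and 66.3 to 389.6, 433 and 344 CPM (3.82; 4.47 without DMSO replicate 3), ATF3 from 0.693, 0.602 and 7.24 to 49.9, 60.8 and 42.6 CPM (4.20; 4.97) and ATF5 from 105, 109 and 149 to 428, 441 and 445 CPM (1.87). PPP1R15A (GADD34), which lifts the translation block, rose from 18.2, 17.7 and 94.0 to 707, 914 and 561 CPM (4.46; 5.24 without DMSO replicate 3). The amino acid transporter SLC7A5 (1.48, SE 0.0835), the serine synthesis gene PSAT1 (1.37, SE 0.087) and the mTORC1 inhibitor SESN2 (1.60, SE 0.0949) rose.

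The unfolded protein response of the endoplasmic reticulum was mixed, with 10 of 18 higher and 6 lower (28.9% and 54.5% of all genes) and a median of 0.39. HSPA5, the main chaperone of that compartment, picked after its values were seen, was not called (0.26, adjusted p = 0.0501). HERPUD1 (1.58), DNAJC3 (1.67), DNAJB9 (1.65) and calnexin CANX (1.03) rose, and SDF2L1 fell from 16.8, 14.7 and 12.8 to 2.25, 2.35 and 1.25 CPM (-2.43, SE 0.155). ERN1, the sensor IRE1, picked after its values were seen, stood at 2.99, 3.17 and 14.7 CPM in DMSO and 78.9, 74.0 and 88.2 CPM in treated libraries (3.67; 4.32 without DMSO replicate 3). Autophagy genes were higher in 11 of 16 and lower in 2 (ATG7, -0.32, and TFEB, -0.72; 28.9% and 54.5% of all genes), with a median of 0.71. Without DMSO replicate 1 it was 1 that was called lower. They include TFE3 (1.85), a factor of lysosome genes, the ATG8 family genes MAP1LC3B (2.29) and GABARAPL1 (2.50), and the receptors CALCOCO2 (1.24) and TAX1BP1 (1.17). PSAP, a lysosomal saposin precursor, had one of the 5 largest gains in CPM, from 275, 280.4 and 415 to 1333, 1446 and 1315 (2.10).

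Immediate early genes moved both ways. Of 20 tested, 12 rose and 7 fell (28.9% and 54.5% of all genes), 10 and 5 of them at least 2-fold (8.5% and 22.7% of all genes), with a median of 0.95. JUND of the AP-1 family rose from 28.3, 25.6 and 32.7 to 103, 128 and 82.8 CPM (1.81, SE 0.137) and the phosphatase gene DUSP1 from 0.547, 0.475 and 1.71 to 14.0, 18.8 and 10.3 CPM (3.03, SE 0.235). The other AP-1 genes FOS (3.56) and JUN (3.42), picked after their values were seen, rose too. DUSP6, the ERK phosphatase, fell from 9.20, 9.94 and 8.21 to 0.701, 0.854 and 0.555 CPM (-2.57, SE 0.114), EGR2 from 5.95, 5.73 and 4.69 to 0.627, 0.605 and 0.509 CPM (-2.03, SE 0.114) and BTG2, an antiproliferative gene, from 592, 591 and 517 to 184, 184 and 197 CPM (-1.58, SE 0.0716). The other members that fell at least 2-fold were EGR1 (-1.68) and the phosphatase gene DUSP2 (-1.33), picked after their values were seen. Of 25 hypoxia and glycolysis genes 20 rose and 3 fell (HK1, -1.06; GPI, -0.33; PFKL, -1.14), where 28.9% and 54.5% of all genes did, with a median of 0.70. BNIP3, a mitophagy receptor, went from 20.7, 20.7 and 36.3 to 127, 120.1 and 123 CPM (2.26, SE 0.168), and the histone demethylase KDM3A (2.16), PFKFB3 (1.31), TPI1 (1.36) and ALDOA (0.96) rose. Of 14 FOXO and mTOR genes 11 rose, such as FOXO4 (1.66), TSC22D3 (1.68), PIK3IP1 (1.34) and SESN3 (1.10), and 2 fell (28.9% and 54.5% of all genes), with a median of 1.01. Those that fell were DEPTOR (-1.18) and TXNIP, a FOXO target that binds thioredoxin, from 328, 335 and 294 to 74.5, 68.7 and 85.8 CPM (-2.05, SE 0.0874).

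**Figure D4:**
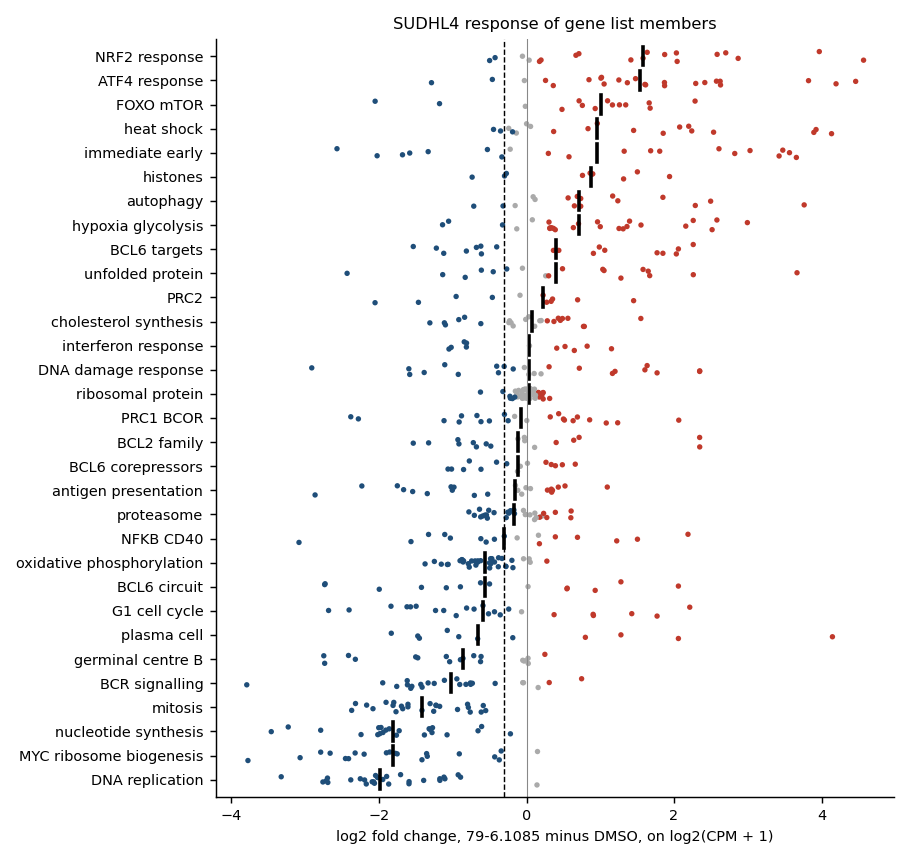
Log2 fold change on log2(CPM + 1), treated minus DMSO (the axis gives the compound's code name), of each tested member of 31 gene lists in SUDHL4, with members called higher in red, called lower in blue and not called in grey. Black bars are list medians and the dashed line is the median of all 11256 genes (-0.31), and the lists run from the NRF2 response (1.58) at the top to DNA replication (-1.98) at the bottom.

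MYC fell, as did most tested genes of growth and division. MYC, the growth factor-responsive transcription factor, stood at 404, 409 and 325 CPM in DMSO and 25.8, 27.2 and 26.8 CPM in treated libraries. Treated libraries were all below 28 CPM and DMSO libraries all above 320 CPM (-3.78, SE 0.0888, adjusted p = 3.15e-10; -3.88 without DMSO replicate 3). MYC is itself a member of the list of MYC targets and ribosome biogenesis genes and is counted in it. Of the list's 20 members 0 rose and 19 fell (28.9% and 54.5% of all genes), 15 of them at least 2-fold (22.7% of all genes), with a median of -1.82. The remaining 1, the transferrin receptor TFRC (0.15), was called higher without DMSO replicate 3, without treated replicate 3 and with median-of-ratios scaling. RNA polymerase I genes POLR1B (88.4, 96.9 and 80.9 to 12.0, 13.4 and 14.1 CPM, -2.66) and POLR1A (-2.32) and the pseudouridine synthase gene DKC1 (-2.20) fell. NCL, which codes for nucleolin, was among the largest losses in CPM, from 1364, 1403 and 1210 to 370.3, 461 and 335.

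Nucleotide synthesis genes fell in 22 of 22 tested (54.5% of all genes), 19 of them at least 2-fold (22.7% of all genes), with a median of -1.81. RRM2, the regulated subunit of ribonucleotide reductase, went from 104, 102 and 89.4 to 9.33, 10.8 and 8.61 CPM (-3.23, SE 0.0954), and its partner RRM1 from 152, 148 and 145 to 44.7, 42.2 and 45.5 CPM (-1.73, SE 0.0658). PFAS (-3.46) and ATIC (-1.99) of purine synthesis and CAD (220.2, 231 and 184 to 28.4, 31.5 and 29.0 CPM, -2.79) of pyrimidine synthesis fell. With median-of-ratios scaling 21 of the 22 were lower. DNA replication genes were lower in 27 of 28 and higher in 0 (54.5% and 28.9% of all genes), 25 of them at least 2-fold (22.7%), with a median of -1.98. POLE (0.14) was not called, and it was higher with median-of-ratios scaling. PCNA, the sliding clamp, stood at 162, 158 and 142 CPM in DMSO and 22.0, 23.7 and 20.0 CPM in treated libraries (-2.76, SE 0.083). The helicase genes MCM3 (-2.69) and MCM6 (-2.17), the polymerase gene POLA1 (-2.70) and the uracil glycosylase UNG (-3.33) fell.

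All 25 mitosis genes fell (54.5% of all genes), 18 of them at least 2-fold (22.7% of all genes), with a median of -1.42. TOP2A, which untangles chromosomes, stood at 372, 339 and 342 CPM in DMSO and 113, 102 and 112 CPM in treated libraries (-1.68, SE 0.0682). CDK1, the mitotic kinase, was at 129.7, 112 and 124 and 38.3, 38.1 and 34.3 CPM (-1.70, SE 0.0786), where DMSO replicate 3 lay between its partners. AURKB (-2.08), MAD2L1 (-2.32) and CCNA2 (-1.91) fell. Among 23 genes of the G1 phase and its control, 6 rose and 16 fell (28.9% and 54.5% of all genes), with a median of -0.59. The factors E2F8 (15.8, 16.1 and 14.6 to 1.29, 1.57 and 1.85 CPM, -2.68), E2F2 (-2.41) and E2F7 (-1.84), the kinase CDK4 (-1.62) and cyclin CCND3 (-1.50) fell. Of the inhibitors, picked after their values were seen, CDKN2B rose from 1.53, 1.14 and 2.55 to 11.8, 11.4 and 11.1 CPM (2.21, SE 0.157) and CDKN1A by 1.77.

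Genes that fell most beyond those lists have varied roles. FAM111B, a protease of dividing cells, went from 80.6, 64.1 and 73.9 to 5.31, 5.27 and 4.86 CPM (-3.58, SE 0.0968), and here DMSO replicate 3 lay between its partners. LZTS1 (-3.53), the developmental gene MAB21L1 (16.8, 15.8 and 13.5 to 0.369, 0.392 and 0.555 CPM, -3.50), the endocytic gene EHD3 (-3.38) and the metalloprotease ADAM19 (293, 305 and 243 to 25.1, 28.6 and 29.9 CPM, -3.28) fell. So did the lariat debranching enzyme DBR1 (-3.29), the mitochondrial genes ALDH1B1 (-3.38), MARS2 (-3.24) and MRM1 (-3.22), and the pseudokinase TRIB1 (-3.27). In CPM the largest losses were ACTB, the cytoplasmic actin, from 6915, 7307 and 6100 to 1823, 2249 and 1778, MS4A1 (CD20), from 3675, 3469 and 3462 to 2263, 2240 and 2149, ACTG1 (-0.56), NCL and PARP1, from 1284, 1350 and 1103 to 301, 335 and 316. With median-of-ratios scaling ACTG1 was not called (adjusted p = 0.0646). NCOA3, a nuclear receptor coactivator, was among the largest gains, from 414, 438 and 576 to 1460, 1461 and 1440 CPM (1.62, SE 0.105).

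Of 23 genes of the response to DNA damage 9 rose and 10 fell (28.9% and 54.5% of all genes), with a median of 0.03 (-0.001 without DMSO replicate 2; 13 higher and 6 lower with median-of-ratios scaling). The death receptor TNFRSF10B rose from 74.0, 75.5 and 97.8 to 260, 266 and 243 CPM (1.63, SE 0.0987) and BBC3 (PUMA), a proapoptotic BH3-only gene, from 3.07, 2.72 and 4.89 to 22.2, 23.0 and 20.1 CPM (2.35, SE 0.151). AEN, an apoptosis-enhancing nuclease, fell from 47.9, 51.5 and 41.2 to 5.46, 4.77 and 5.83 CPM (-2.91, SE 0.105). Of 17 BCL2 family genes 5 rose and 8 fell, shares near the 28.9% and 54.5% of all genes, with a median of -0.12 (0.23 with median-of-ratios scaling, under which 9 were higher and 7 lower). The 5 were PMAIP1, BBC3, BCL2L11 (0.71), HRK (0.64) and MCL1 (0.40). PMAIP1 (NOXA) went from 100, 88.4 and 171 to 599, 609.6 and 557 CPM (2.35, SE 0.182), while BCL2A1 (-1.33), an antiapoptotic NF-kB target, and BID (-0.93) fell.

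The ribosomal protein list and the proteasome list had no member that changed 2-fold. The immunoproteasome genes PSMB8 (-1.75) and PSMB9 (-2.23) were counted with antigen presentation and are not in the proteasome list. Ribosomal protein genes were higher in 10 and lower in 6 of 57, with 41 not called (28.9% and 54.5% of all genes were called higher and lower), with a median of 0.03 (-0.02 without treated replicate 2). Those counts were unstable: 6 were higher without DMSO replicate 1, 5 without DMSO replicate 2 and 5 without treated replicate 1, and 3 were lower without DMSO replicate 1 or treated replicate 3. Without a filter 4 were higher, and with all 18 libraries in the fit 3 were higher and 2 lower. With median-of-ratios scaling 51 were higher and 1 lower. RPL11 (0.31) and RPS19 (0.23) rose, and RPS10 (-0.63), at 1.11 to 2.81 CPM, RPL35 (-0.32) and RPL15 (-0.23) fell, of which RPL35 and RPL15 turned to 0.03 and 0.12 with that scaling. Proteasome genes were higher in 6 and lower in 17 of 31 (28.9% and 54.5% of all genes), or 15 and 9 with median-of-ratios scaling, with PSMA6 (-0.78), PSMA4 (-0.71), PSMD2 (-0.64) and PSMD4 (-0.62) lower and PSMD11 (0.60) higher. Oxidative phosphorylation genes were lower in 32 and higher in 1 of 36 (54.5% and 28.9% of all genes), or 19 and 4 with that scaling, with a median of -0.56, the 1 being UQCRC2 (0.28). Those that fell include ATP5C1 (206, 198 and 186 to 76.0, 76.4 and 73.0 CPM, -1.38), NDUFV1 (-1.25), UQCRQ (-1.16), NDUFA2 (-1.06) and ATP5A1 (-0.79). Of 24 cholesterol synthesis genes 9 rose, such as the sterol carrier STARD4 (1.55), and 6 fell, such as TM7SF2 (-1.31), LSS (-1.11), ACAT2 (-1.10) and FDPS (-0.84), where 28.9% and 54.5% of all genes did. With median-of-ratios scaling 14 of the 24 were higher, and without treated replicate 2 10 were lower. Of 10 tested histone genes 7 rose and 3 fell (28.9% and 54.5% of all genes), with a median of 0.87. H1FX (-0.74), H2AFZ (-0.27) and H3F3B (-0.30) fell, of which 1 was called lower with median-of-ratios scaling. HIST1H2BD went from 1.28, 1.33 and 2.24 to 8.56, 10.4 and 7.92 CPM (1.94, SE 0.149), and HIST2H2BE (1.50), HIST1H2AC (1.32), HIST1H2BK (0.76) and HIST1H2BG (0.90) rose.

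To ask where the SUDHL4 response differs from that of the other lines, the log2 fold change in SUDHL4 minus the mean of those in SUDHL6 and Farage was tested over all 18 libraries. Of 12769 genes, 4787 (37.5%) differed, 1973 (15.5%) with a higher and 2814 (22%) with a lower response in SUDHL4, and the median difference was -0.04. Differences of at least 2-fold numbered 325 (2.55%) and 510 (3.99%). With median-of-ratios scaling 52.0% of the differences were higher, against 41.2%. Without DMSO replicate 3 the counts were 1934 and 2671. Of the 11256 genes tested in SUDHL4 alone, 36.6% differed, 1527 (13.6%) higher and 2592 (23%) lower, and 2.15% and 4.11% did so by at least 2-fold. The others passed the filter only together with SUDHL6 or Farage libraries. In SUDHL6, replicate 3 was the shallowest library of both groups and same-numbered libraries deviated together (correlations of 0.425, 0.488 and 0.632), so a fit with a replicate block was run as well. MYC fell more in SUDHL4. Its changes were -3.78 in SUDHL4, -1.45 in SUDHL6 and -0.27 in Farage, from DMSO means of 379 ± 47.2, 343 ± 22.2 and 178 ± 10.3 CPM (SD, n = 3), so the difference was -2.92 (SE 0.121, adjusted p = 2.78e-10). BCL6 differed too, by -0.93 (SE 0.177, adjusted p = 0.000649). For EZH2 (0.28, SE 0.2, adjusted p = 0.284), CBX8 (-0.31, SE 0.207, adjusted p = 0.257) and BCOR (0.45, SE 0.18, adjusted p = 0.0603) no difference was called, which does not show that the lines respond alike.

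Several genes moved in opposite directions in the lines. RDH13, a retinol dehydrogenase, changed by 0.81 in SUDHL4, -1.91 in SUDHL6 and -1.73 in Farage (difference 2.63, SE 0.162, adjusted p = 9.43e-09). Its treated levels were 7.43, 7.54 and 3.59 CPM, from DMSO means of 3.80, 31.2 and 14.2 CPM. The peptide trimming enzyme ERAP2 (0.54, -1.68 and -0.60, difference 1.68), SWAP70, a B cell signalling protein (0.69, -0.41 and -0.61, difference 1.20), and TNRC6C of the miRNA silencing complex (1.27, -0.62 and -0.99, difference 2.08) showed the same signs. TNRC6C was at 0.296 to 2.03 CPM in the groups of the other lines, against 12.2 and 30.6 CPM in SUDHL4. PDIA4, a protein disulfide isomerase, fell less in SUDHL4 (-0.45, -1.71 and -1.72, difference 1.26). SYNDIG1L rose from 0.0674 to 4.36 CPM in SUDHL4, and its treated means in the other lines were 0.454 and 0.753 CPM (difference 1.66). SLA, RGNEF, COL23A1, KBTBD11 and NOL4 had a lower response in SUDHL4, by -3.17, -3.05, -2.92, -2.57 and -2.68, and their means in the other lines were all under 0.4 CPM. For these 5 genes the difference therefore sets a fall in SUDHL4 against lines where the gene was hardly detected.

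**Figure D5:**
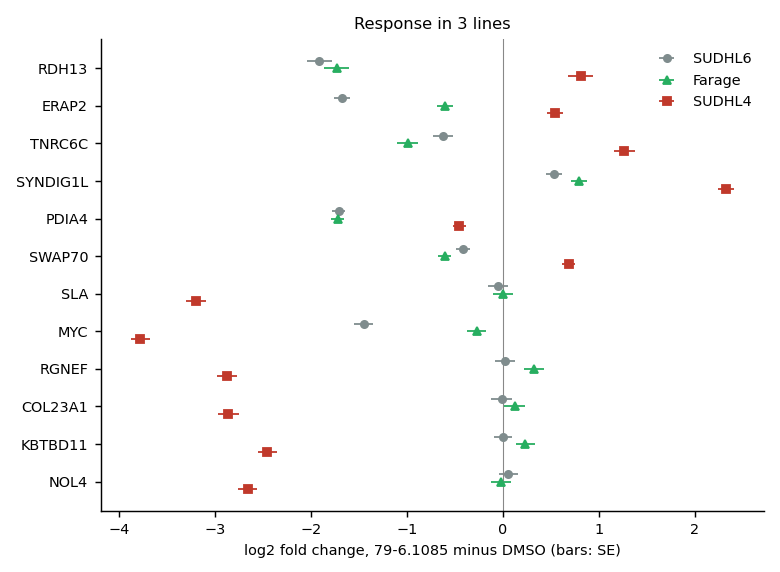
Log2 fold change on log2(CPM + 1), treated minus DMSO, with its SE as bars, in SUDHL6 (circles), Farage (triangles) and SUDHL4 (squares) for 12 genes, 6 per direction. They had the smallest p for a difference of response among genes with a mean of at least 2 CPM over the SUDHL4 libraries. LOC, LINC, MIR and SNOR symbols were left out. RDH13, ERAP2, TNRC6C and SWAP70 lie on opposite sides of 0, and MYC lies at -3.78 in SUDHL4 against -1.45 and -0.27.

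The stress genes HMOX1 and HSPA1A, picked after their values were seen, rose in the other lines and were under 1 CPM in both SUDHL4 groups. HMOX1, the heme-degrading NRF2 target, went from 0.497 ± 0.0436 to 0.725 ± 0.172 CPM in SUDHL4 (SD, n = 3). In SUDHL6 it went from 2.10 ± 1.72 to 46.99 ± 14.2 CPM, and in Farage from 43.8 ± 1.96 to 1632 ± 101 CPM. The changes were 0.20 in SUDHL4, 4.04 in SUDHL6 and 5.19 in Farage, a difference of -4.41 (SE 0.332, adjusted p = 7.61e-08). HSPA1A, whose reads are shared with HSPA1B, reached 0.693 ± 0.059 CPM in treated SUDHL4 libraries, 7.70 ± 0.387 CPM in SUDHL6 and 171 ± 11.1 CPM in Farage. Its changes were 0.64 in SUDHL4, 2.11 in SUDHL6 and 4.60 in Farage, a difference of -2.71, and those of HSPA1B were 3.89 in SUDHL4, 2.90 in SUDHL6 and 4.98 in Farage, a difference of -0.04 (adjusted p = 0.951). DUSP6 was the reverse case, with DMSO means of 9.12 ± 0.871 CPM in SUDHL4 and under 0.3 CPM in the other lines, so its difference of -2.89 sets a fall in SUDHL4 against lines where it was hardly detected.

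Gene lists can be set against that background of 13.6% higher and 23% lower. Counts below cover only members tested in SUDHL4, a restriction chosen after the data were seen, and give first the genes with a higher and then those with a lower response in SUDHL4. A number in brackets after a gene is its difference. Genes named from the lists here were picked after their values were seen. MYC targets and ribosome biogenesis had 1 of 20 with a higher (FBL, 0.42) and 13 with a lower response, MYC itself among them (median difference -0.63). DNA replication had 1 (POLE, 0.41, not called without DMSO replicate 3) and 9 of 28 (-0.44), and with the replicate block 17 were lower. Nucleotide synthesis had 1 (IMPDH2, 0.43) and 8 of 22 (-0.38). Mitosis genes had 0 and 0 of 25 (0.10), with 0 and 0 at an unadjusted p under 0.05 in limma. Their differences were imprecise, with an SE of 0.457 for CDC20 (0.94) and 0.489 for MKI67 (0.65), against 0.121 for MYC. With the replicate block CDC20 was called higher and MAD2L1 (-0.67) lower.

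Antigen presentation genes had 12 higher and 3 lower of 23 (0.41), the 3 being CIITA (-0.88) and the class II genes HLA-DQA1 (-0.90) and HLA-DQB1 (-0.75). Interferon response genes had 5 higher and 0 lower of 11 (0.43), with 0 lower at an unadjusted p under 0.05 in limma. The 5 include IFI35 (0.78), STAT2 (0.61), IRF7 (0.54) and IRF9 (0.43). NF-kB and CD40 genes had 5 and 3 of 17 (0.08), or 8 and 3 with the replicate block. The 5 were the NF-kB inhibitor TNFAIP3 (1.91), ICAM1 (1.003), NFKB2 (0.89), RELB (0.73) and NFKBIE (0.71), and the 3 were the NF-kB subunits NFKB1 (-0.64) and RELA (-0.37) and the activation antigen CD83 (-1.41). Immediate early genes had 3 and 8 of 20 (-0.29), with JUN (1.35), IER5 (1.39) and MAFF (1.01) higher, or 5 and 8 without DMSO replicate 3. With the replicate block MAFF was not called (adjusted p = 0.0656).

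Heat shock genes had 1 (HSPB1, 1.55) and 6 of 19 (-0.30), or 5 and 6 without DMSO replicate 3. The NRF2 response had 2 (TKT, 0.47, and MAFG, 0.72) and 10 of 19 (-0.43), or 3 and 8 without that library. The ATF4 response had 4 and 6 of 24 (-0.09), or 6 and 3 without that library and 5 and 3 with median-of-ratios scaling. The 4 were PPP1R15A (1.59), ATF5 (1.50), CEBPG (0.64) and SLC1A4 (0.78). The difference of SLC7A11 was 0.45 with DMSO replicate 3 (adjusted p = 0.614) and 1.42 without it (adjusted p = 0.00071).

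Lists nearest to the study's question had members with a higher and members with a lower response, except PRC2, where 0 were lower. The shares over all genes tested in SUDHL4 were 13.6% and 23%. The corepressor list had 3 higher and 4 lower of 15, or 7 and 2 with median-of-ratios scaling. In the BCL6 circuit 4 of 14 had a higher response, IRF8 (1.01), FOXO1 (0.79), POU2AF1 (0.53) and TCF3 (0.49), and 2 a lower one, ID3 (-2.06) and BCL6. Without DMSO replicate 3, POU2AF1 and TCF3 were not called, which left 2 and 2. Of 18 BCL6 targets 5 were higher, among them CD69 (1.23), ID2 (0.86), CD80 (0.67) and CD44 (0.59), and 4 lower, CXCR4 (-1.01), BCL2 (-0.82), NFKB1 and CCND2 (-0.45). CD44 and CXCR4 were not called without DMSO replicate 3 and ID2 was not called with the replicate block. Of 11 PRC2 genes 2 were higher and 0 lower, with 0 lower at an unadjusted p under 0.05 in limma. The 2 were JARID2 (0.50) and EZH1, the paralogue of EZH2, whose changes were 0.33 in SUDHL4, -0.58 in SUDHL6 and -0.84 in Farage, a difference of 1.04. Of 22 PRC1 and BCOR complex genes 2 were higher, YAF2 (0.41) and PCGF3 (0.28), and 4 lower, CBX2 (-0.92), BCORL1 (-0.53), CBX6 (-0.49) and PCGF5 (-0.37). Without DMSO replicate 3 the counts were 4 and 4, and with median-of-ratios scaling 6 and 3.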

How the data were processed

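The authors deposited one table per library with a CPM value per gene. The submitters' processing notes name STAR and hg19, and per the labels the libraries are TruSeq RNA libraries. A description in the labels also names Rsubread. The strand setting is not given in the sources used here, nor are versions or the annotation release, so reads of overlapping or antisense genes may not be separable. Listed genes held 78.07 to 80.72% of the reads behind the SUDHL4 values, and 3 reads came to at most 0.139 CPM. Samples were grouped by the labels. Members and gene lists were chosen with earlier results of these data known.

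From the 6 SUDHL4 libraries, genes with at least 1 CPM in at least 3 libraries were tested on log2(CPM + 1) with limma 3.58.1 in R 4.3.3 (trended prior, 4 residual degrees of freedom), with Benjamini-Hochberg adjustment over 11256 genes and a threshold of 0.05. All adjusted p-values are from this test unless another is named. The difference between lines was fitted likewise to all 18 libraries over 12769 genes. List counts for it use genes tested in SUDHL4 and were also made with a replicate block in each line, since same-numbered SUDHL6 libraries deviated together (correlations of 0.425, 0.488 and 0.632). The CPM values came out as whole reads for 100% of values within 0.01 of a read. On these reads edgeR 4.0.16 (quasi-likelihood, TMM) called 4518 genes higher and 4814 lower, and DESeq2 1.42.0 called 4575 and 4515. The limma and edgeR fits of treated against DMSO were tried on simulated reads in which few genes changed. The other fits were not, and so broad a change as in these data was not simulated.

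Genes named by rule are BCL6, EZH2, CBX8 and BCOR, the 15 largest called changes per direction (groups not overlapping, mean of at least 2 CPM, no LOC, LINC, MIR or SNOR symbols), the 5 largest called changes in CPM per direction, up to 5 called members per list by smallest p, and 6 called genes per direction with the smallest p for the difference between lines. The genes for the difference also had a mean of at least 2 CPM over the SUDHL4 libraries, with the same symbols left out. Some genes that these rules choose are not reported here. Of 38 lists, 7 hold markers of cell types. Alternatives were another pseudocount, other filters, median-of-ratios scaling, all 18 libraries in the fit, a block for replicate number, the count tests and leaving out each library.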

Additional observations from a re-analysis of the deposited data

Results flagged for a closer look

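The response to the compound differed between SUDHL4 and the mean of SUDHL6 and Farage, tested as a difference of log2 fold changes, for 1973 genes with a higher and 2814 with a lower value in SUDHL4. Among the genes named for this difference, the higher ones were RDH13 (2.63), TNRC6C (2.08), ERAP2 (1.68), SYNDIG1L (1.66), PDIA4 (1.26) and SWAP70 (1.20). The lower ones were SLA (-3.17), RGNEF (-3.05), MYC (-2.92), COL23A1 (-2.92), NOL4 (-2.68) and KBTBD11 (-2.57). For RDH13, TNRC6C, ERAP2 and SWAP70 the SUDHL4 response was positive and that of both other lines negative. For SLA, RGNEF, COL23A1, KBTBD11 and NOL4 the other lines had under 0.4 CPM in each group. Groups had 3 libraries each, too few for a check of single outlying libraries by this route.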

How the results depend on the processing

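The SUDHL4 counts, 3248 genes higher and 6130 lower, stayed within 1.5 times in every alternative that only changed the scaling, filter, pseudocount, samples or tool, and leaving out 1 library at a time gave 3025 to 3241 higher and 5825 to 6130 lower. Asking for at least 2-fold changes as well gave 957 and 2557. For the difference between lines, leaving out 1 SUDHL4 library gave 1585 to 1934 higher and 2275 to 2671 lower. The median place of DMSO replicate 3 was 14.2% among genes that differed at least 8-fold. Same-numbered SUDHL4 libraries did not deviate together (correlations of -0.057, 0.033 and -0.079), nor did those of Farage (0.168, -0.128 and -0.189), while those of SUDHL6 did (0.425 to 0.632). A fit with a replicate block gave 3226 higher and 6082 lower in SUDHL4, and, with a block in each line, 2397 higher and 3162 lower for the difference. Beside the values given with the lists, this block changed the call of no gene named for the difference and moved no list count given there by over 1.5 times. Without a filter 3993 genes were higher and 6752 lower. Of 181 named genes, 178 to 181 kept direction and call in each setting that tested them all. RPL35 turned to 0.026 with median-of-ratios scaling and 0.030 with DESeq2, and RPL15 to 0.121 and 0.123, and to 0.084 with edgeR. The calls lost, with the same direction, were EZH2, RPS10 and RPL15 with all 18 libraries, CRIM1 with DESeq2, ACTG1 with median-of-ratios scaling, RPL35 with edgeR and RPS19 without a filter. The cause was not tested. Genes under about 1 CPM, PRDM1 and HMOX1 among them, were left out of the SUDHL4 test by the filter.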
